A study of Mus musculus with 12 samples.

Results

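The mitochondrial ribosomal protein genes are the nuclear genes for the protein subunits of the ribosome inside mitochondria. They were taken as every gene symbol that starts with Mrpl or Mrps followed by a digit, without the pseudogene ending -ps. This gave 76 of the 23284 genes in the deposited expression table, 47 of them named Mrpl and 29 named Mrps. All 76 reached the level needed for testing, 1 FPKM (fragments per kilobase of transcript, scaled to library depth) or more in 3 or more of the 12 libraries, as did 12502 genes in all.

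The libraries hold RNA of type 3 innate lymphoid cells (ILC3s) sorted from the small intestine of HR-1 hairless mice aged 18 weeks. The groups were PA milk (pups of ND mothers nursed by mothers whose chow had added palmitic acid) and ND (pups nursed by mothers on normal chow), each with cells of the intraepithelial layer (IEL) and of the lamina propria (LP). Each of the 4 groups, called PA IEL, ND IEL, PA LP and ND LP, had 3 libraries. After weaning, all mice ate normal chow. The sort took lineage-negative cells positive for Thy1.2, CD25 and Nrp1, and the sources used here differ on whether CD4 or CD45 was also required. Nothing states that replicates came from separate animals, so p-values measure only the spread between these samples. It is also not stated whether IEL and LP libraries of the same diet and number came from the same mice. The main fits treat them as unpaired.

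The mitochondrial ribosome translates the few messenger RNAs encoded by mitochondrial DNA, all of them for subunits of the respiratory chain and the ATP synthase. Its small subunit reads the messenger RNA and its large subunit joins the amino acids and passes the chain through a tunnel to the inner membrane. It has fewer RNA and more protein parts than the bacterial ribosome, and many of its proteins have no bacterial counterpart. ILC3s are lymphocytes of the gut wall that respond to cytokines by releasing IL-22 and IL-17.

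Read numbers recovered from the low values of the table ranged from 8.75 to 14.59 M (M stands for 1000000) per library, with a median of 13.01 M. The libraries differed more in how many genes they held than in reads. In PA IEL, 10145, 4390 and 9754 genes were at an FPKM of at least 1 in replicates 1, 2 and 3, and in PA LP 8406, 5637 and 11378. In ND IEL these counts were 11121, 7863 and 11172, and in ND LP 9595, 11158 and 11282. Replicate 2 of PA IEL and replicate 2 of PA LP thus held the fewest genes, although the first of them was the deepest library with 14.59 M reads.

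The ILC3 label was checked against 18 marker genes. In PA IEL, 16, 1 and 16 of them were at an FPKM of at least 1, in PA LP 6, 3 and 14, in ND IEL 16, 5 and 18, and in ND LP 13, 18 and 16. Il22 had the highest mean of the list because of 4339 FPKM in replicate 2 of ND LP. It was under 1 in 6 libraries, at 0.09, 0.31 and 0.42 in PA LP, at 0.25 in replicate 2 of PA IEL, at 0.18 in replicate 2 of ND IEL and at 0.16 in replicate 1 of ND LP. In bulk RNA, fewer cells of a type and less RNA per cell cannot be told apart.

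Mitochondrial ribosomal protein genes were nevertheless detected in nearly all libraries. All 76 were at an FPKM of at least 1 in replicates 1 and 3 of PA IEL, replicates 1 and 3 of ND IEL and replicate 3 of ND LP. The count was 71, 68 and 75 in PA LP, 71 in replicate 2 of ND IEL and 73 and 75 in replicates 1 and 2 of ND LP. In replicate 2 of PA IEL it was 54, or 71.1% of the members, where 34.8% of all genes tested were detected. Cytosolic ribosomal protein genes, which serve the ribosomes outside mitochondria, were detected at 79 to 83 of 85 in every library. Of the 84 genes for nuclear subunits of the respiratory chain and ATP synthase, 73 to 80 were detected.

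Of the 912 values of the 76 members in 12 libraries, 45 were under 1 FPKM, 25 of them listed at 0. Another 13 values lay between 1 and 5, so most members were either clearly present or nearly absent in a library. Replicate 2 of PA IEL held 22 of the low values and replicate 2 of PA LP held 8. Mrpl1, Mrpl24, Mrpl48, Mrpl49, Mrps24 and Mrps35 were under 1 in both of these libraries. In replicate 2 of PA IEL the low values belonged to 6 of the 38 members with the higher means and to 16 of the 38 with the lower means.

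In the same libraries other members reached their highest values. Of the 76 members, 25 were highest of all 12 libraries in replicate 2 of PA IEL and 24 in replicate 2 of PA LP. Mrpl18, a protein of the central protuberance of the large subunit, had 669 FPKM in replicate 2 of PA IEL against 193 and 196 in its replicates. Mrps18c, the closest relative of bacterial S18, was listed at 0 there and had 186.84 and 236.55 FPKM in the other libraries of its group. Replicate 2 of PA IEL thus held some members far above and others far below their usual level. Measured from each member's median over the 12 libraries, 24 members were more than 2-fold above and 23 more than 8-fold below. The interquartile range of these log2 deviations was 5.70 there, 1.28 in replicate 2 of PA LP and 0.50 to 1.14 in the other 10 libraries. Over all genes tested it was 3.38, 3.01 and 0.90 to 1.73. The members thus spread more than all genes in replicate 2 of PA IEL and less in replicate 2 of PA LP.

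A floor of 3 reads corresponded to between 0.0297 and 1.54 FPKM, depending on the member and the library, and covers counting error only. The libraries carry no molecular identifiers, so their reads are not independent molecules. The median member had between 529 and 1141 reads in a library. Values listed at 0 in this table are therefore hard to set against a group mean, and members with such values are given library by library.

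**Figure D1:**
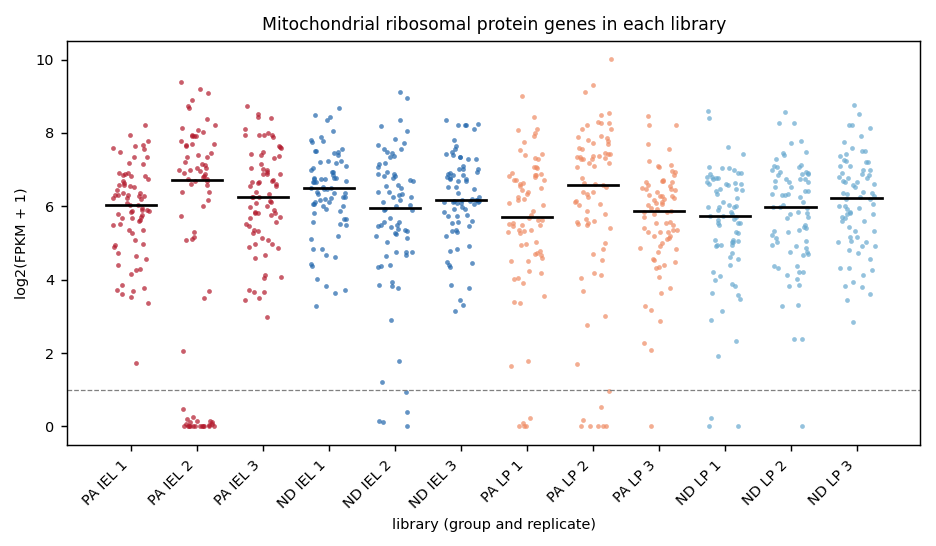
Each point is 1 of the 76 mitochondrial ribosomal protein genes in 1 library, as log2(FPKM + 1), with the libraries named by group and replicate on the horizontal axis, a bar at the median and a dashed line at an FPKM of 1. Replicate 2 of PA IEL has 22 members under the line and a median FPKM of 104.5, the highest of the 12 medians.

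The members were moderately to highly expressed. Their mean FPKM over the 12 libraries ranged from 6.83 to 421, with a median of 74.3. The median over all genes tested was 13.05, and 74 of the 76 members lay above it. Cytosolic ribosomal protein genes had a median of 552 and respiratory chain genes one of 390, both above the members. Summed over the 76 members, the share of all FPKM was 1.07% ± 0.172 (SD, n = 3) in PA IEL and 0.997% ± 0.186 (SD, n = 3) in ND IEL. It was 0.999% ± 0.355 (SD, n = 3) in PA LP and 0.849% ± 0.186 (SD, n = 3) in ND LP, so the diets within a layer, and the layers within a diet, differed by less than the SD of their libraries.

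The highest mean belonged to Mrps21, the small subunit homologue of bacterial S21, with FPKM values of 295, 548 and 426 in PA IEL, 411, 499 and 324 in ND IEL, 343, 1033 and 298 in PA LP, and in ND LP 130, 381 and 365. The groups overlapped, with replicate 2 of PA LP the highest and replicate 1 of ND LP the lowest library. Next came Mrpl33, a large subunit protein with a bacterial homologue, with a mean FPKM of 373, Mrpl52 with 269, Mrpl54 with 243 and Mrpl42 with 230. The lowest mean belonged to Mrps25, a small subunit protein without bacterial counterpart. It had 2.30, 10.26 and 11.64 FPKM in PA IEL, 8.66, 1.30 and 8.83 in ND IEL, 14.15, 7.07 and 3.26 in PA LP, and in ND LP 4.06, 4.24 and 6.20. Just above it were Mrpl1 with a mean FPKM of 11.3, Mrpl17 with 13.1, Mrpl35 with 16.1 and Mrpl19 with 16.7.

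The level per length was lower for members with longer transcripts as the authors' software measured them. This length shows as the number of scaled counts per unit of FPKM, which ran from 2.11 for Mrps21 to 69.1 for Mrpl17, with a median of 8.91. Across the 76 members, the Spearman correlation between that number and the mean FPKM was -0.86, and with the mean scaled count, which is not divided by length, it was -0.05. Over 12464 of the genes tested the same correlations were -0.49 and -0.07. For the tested cytosolic ribosomal protein genes they were -0.49 and 0.38 (82 genes) and for respiratory chain genes -0.45 and 0.35 (81 genes). These correlations are across genes, which are not independent replicates, all points share the same 12 libraries, and FPKM is itself divided by length. With the annotated exon bases of each member, a length that does not come from FPKM, the correlation with mean FPKM was weaker, -0.43. The order of the members by FPKM was not the order of their fragments.

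**Figure D2:**
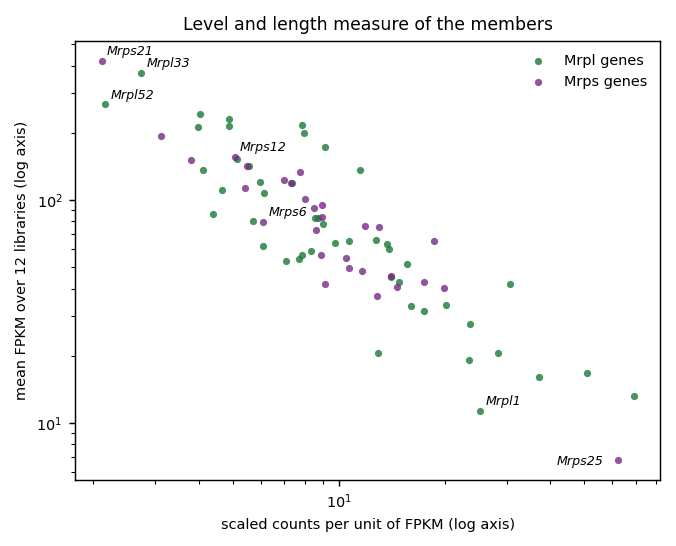
Each point is 1 of the 76 members, with scaled counts per unit of FPKM (a measure of transcript length) on the horizontal axis and the mean FPKM over 12 libraries on the vertical axis, both logarithmic, in green for Mrpl and violet for Mrps symbols. The points fall from Mrps21, with a mean of 421 FPKM at 2.11, to Mrps25, with 6.83 FPKM at 62.2, and the Spearman correlation across the members is -0.86.

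By subunit, 49 members belong to the large and 26 to the small subunit, counting Mrps18a and Mrps30, which despite their names sit in the large subunit. Mrps36 is a subunit of the 2-oxoglutarate dehydrogenase complex of the citric acid cycle and is kept here because the rule is by symbol. It had 93.4, 102 and 128 FPKM in PA IEL, 181, 173 and 155 in ND IEL, 79.2, 143 and 40.0 in PA LP, and in ND LP 62.2, 106 and 99.6. ND IEL thus lay above the 3 other groups in every library.

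Mrpl12 forms the flexible stalk that recruits translation factors. Its values were 163, 174 and 336 FPKM in PA IEL, 342, 109 and 305 in ND IEL, 104, 376 and 115 in PA LP, and in ND LP 97.2, 176 and 295. All 4 groups overlapped. Of the 5 stalk members, Mrpl11 was the lowest in mean FPKM, with 20.5, and Mrpl54 the highest, with 243.

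Mrpl45 anchors the ribosome to the inner membrane beside the tunnel exit. It had 22.5, 52.8 and 39.7 FPKM in PA IEL, 20.5, 38.9 and 19.2 in ND IEL, 24.3, 47.5 and 8.06 in PA LP, and in ND LP 11.0, 15.3 and 31.9. Mrps12, the homologue of bacterial S12 at the decoding centre, had 202, 476 and 100.5 FPKM in PA IEL, 121, 179 and 117 in ND IEL, 97.2, 222 and 77.0 in PA LP, and in ND LP 45.7, 137 and 102. Mrpl36, a small zinc-binding protein of the large subunit, ranged from 47.7 to 242 FPKM. For these 3 genes the diets overlapped in both layers and the layers overlapped under both diets.

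The 3 homologues of bacterial S18 occupy different places, Mrps18c that of S18 itself, Mrps18b another place in the small subunit and Mrps18a one in the large subunit. All 3 were listed at 0 in replicate 2 of PA IEL and were at 42.91 FPKM or more in each of the other 11 libraries. Outside that library, Mrps18c ranged from 139 to 276 FPKM, within 2.0-fold. Mrps30, a large subunit protein named for the small one, was at 0.05 FPKM in replicate 2 of PA IEL and at 13.87 to 80.62 in the others.

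Among the 42 members at 1 FPKM or more in all 12 libraries, the highest library exceeded the lowest by 2.11-fold to 59-fold, with a median of 5.9-fold. The narrowest range was that of Mrps14, from 43.6 to 91.8 FPKM, and the widest that of Mrps17, from 2.13 to 126 FPKM. The 42 members were Mrpl2, Mrpl3, Mrpl4, Mrpl9, Mrpl12 to Mrpl16, Mrpl18 to Mrpl20, Mrpl22, Mrpl23, Mrpl27, Mrpl28, Mrpl30, Mrpl32, Mrpl33, Mrpl36, Mrpl40, Mrpl42, Mrpl45, Mrpl47, Mrpl50 to Mrpl52, Mrpl54, Mrps7, Mrps10, Mrps12, Mrps14 to Mrps17, Mrps21, Mrps23, Mrps25, Mrps28, Mrps31, Mrps33 and Mrps36. Without replicate 2 of PA IEL and of PA LP the count was 62.

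The order of the members by FPKM was compared between libraries with Spearman's correlation across members. It was 0.42 to 0.91, with a median of 0.72, for the 12 pairs of libraries of the same group, and 0.29 to 0.89, with a median of 0.69, for the 54 pairs of different groups. Over all genes tested the medians were 0.70 and 0.60. Libraries of different groups therefore ordered the members about as alike as libraries of the same group, and the points of each pair share their genes and lengths.

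The first comparison asked how the milk diets differed in IEL. Of the mitochondrial ribosomal protein genes, 35 of 76 were higher and 41 lower in PA milk, but 56 were lower with upper quartile scaling and 57 with limma-voom. Their median log2 fold change was -0.08, against -0.30 over all 12502 genes tested, of which 60.5% were lower. Limma fold changes are on the log2(FPKM + 1) scale, which understates the change of low genes. Exceptions are where a pseudocount of 0.1 is named or a range over the alternatives includes it. Those of limma-voom are on log2 values of the scaled counts per M of each library's total over the genes tested. At an adjusted p under 0.05, limma called 0 of the members (0% of all genes), with 2 members at an unadjusted p under 0.05 (3.58% of all genes), Mrps11 and Mrps31, and limma-voom called 0 (0% of all genes), with 1 at an unadjusted p under 0.05 (5.87% of all genes), Mrps31. The direction of the median flipped to 0.17 without replicate 1 of PA IEL and to 0.07 without replicate 2 of PA IEL, and it was -0.63 with upper quartile scaling, which moved the median of all genes to -0.59, and -0.38 with limma-voom (all genes -0.31).

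In IEL the libraries of the diets did not overlap for 9 members. There were 3 that were higher in all PA milk libraries, Mrpl18, Mrps10 and Mrps22, beside 2.97% of all genes, and 6 that were lower, Mrpl21, Mrpl49, Mrps11, Mrps24, Mrps31 and Mrps36, beside 5.22% of all genes. These are 3.95% and 7.89% of the members. An exact permutation test of 3 libraries against 3 cannot go below p = 0.1, the value of each of these.

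Mrps31, a small subunit protein without bacterial counterpart, had 24.1, 3.18 and 16.3 FPKM in PA IEL, against 80.8, 90.1 and 71.3 in ND IEL. Every PA milk library lay more than 2-fold below every ND library, replicate 2 the lowest. The log2 fold change was -2.74 (SE 0.89, limma adjusted p = 0.947), and -1.96 without replicate 2 of PA IEL. Mrps11, the homologue of bacterial S11, was at 54.38, 0 and 24.57 FPKM in PA IEL and at 76.01, 111.87 and 62.73 in ND IEL, a log2 fold change of -2.87 (SE 1.24, limma adjusted p = 0.947). Without replicate 2 of PA IEL, where it was listed at 0, it was -1.13. Mrps24, the homologue of bacterial S3 at the entry of the messenger RNA, was at 74.36, 0.09 and 103.91 FPKM in PA IEL and at 107.63, 186.60 and 115.60 in ND IEL. Its log2 fold change of -2.70 (SE 1.68, limma adjusted p = 0.947) became -0.59 without replicate 2 of PA IEL, so this library gave most of it.

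Mrps22, a small subunit protein without bacterial counterpart, had 64.7, 131 and 50.9 FPKM in PA IEL, against 49.7, 24.4 and 38.1 in ND IEL. The lowest PA milk library exceeded the highest ND library by little. Its log2 fold change was 1.05 (SE 1.40, limma adjusted p = 0.964), and 0.66 without replicate 2 of PA IEL. Mrps10, the homologue of bacterial S10, had 81.2, 243 and 75.3 FPKM in PA IEL, against 66.4, 64.7 and 51.9 in ND IEL, and its log2 fold change of 0.90 (SE 0.93, limma adjusted p = 0.952) was 0.36 without that library. Mrpl18 had 193, 669 and 196 FPKM in PA IEL, against 189, 145 and 172 in ND IEL, with a log2 fold change of 0.80 (SE 0.58, limma adjusted p = 0.947) that was 0.21 without it. In all 3 genes replicate 2 of PA IEL was the highest library of IEL. Over the 21 alternatives their lowest log2 fold changes were 0.36 for Mrps22, 0.35 for Mrps10 and 0.07 for Mrpl18.

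The same question was asked of LP. Here 42 of 76 members were higher in PA milk and 34 lower, with a median log2 fold change of 0.09 against -0.36 over all genes tested, of which 62.2% were lower. That direction depended on the scaling, with a median of -0.34 and 53 members lower under upper quartile scaling (all genes -0.62), 0.40 and 22 lower with scaling on genes common to leukocytes (all genes -0.16), and -0.38 and 55 lower with limma-voom (all genes -0.44). It was -0.10 without replicate 2 of PA LP and -0.06 without replicate 1 of ND LP. At an adjusted p under 0.05, limma called 0 members (0% of all genes) and limma-voom 0 (0% of all genes), with 4 members (4.70% of all genes) and 3 members (5.90% of all genes) at an unadjusted p under 0.05. The 4 were Mrpl2 and Mrps2, higher in PA milk, and Mrps5 and Mrps35, lower. The 3 with limma-voom were Mrpl2, Mrps22 and Mrps34.

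In LP the libraries of the diets did not overlap for 5 members higher in PA milk, Mrpl2, Mrpl4, Mrpl40, Mrpl46 and Mrps2, or 6.58% of the members beside 2.97% of all genes. Mrpl17, Mrpl51, Mrps33 and Mrps35 were lower in all PA milk libraries, 4 members or 5.26%, beside 6.60% of all genes. Not overlapping in both layers were 0 members in the same direction, beside 0.656% of all genes, and 0 in opposite directions, beside 0.24%, so 0 in all beside 0.896%.

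Mrps2, the homologue of bacterial S2, was at 37.48, 98.25 and 34.35 FPKM in PA LP and at 0, 13.37 and 12.91 in ND LP. All PA milk libraries were above all ND libraries. The log2 fold change was 3.13 (SE 1.27, limma adjusted p = 0.979), and 1.86 without replicate 1 of ND LP, where the gene was listed at 0. Mrpl2, a protein near the site where amino acids are joined, had 133, 165 and 77.0 FPKM in PA LP, against 45.6, 44.4 and 22.8 in ND LP, a log2 fold change of 1.70 (SE 0.69, limma adjusted p = 0.979). Leaving out a library kept it between 1.38 and 2.01. Mrpl46, a protein of the central protuberance, had 103, 166 and 103 FPKM in PA LP, against 51.9, 39.3 and 80.1 in ND LP, with a log2 fold change of 1.13 (SE 1.35, limma adjusted p = 0.979).

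Mrps35, a small subunit protein near the messenger RNA channel, was at 0.18, 0 and 19.05 FPKM in PA LP and at 46.07, 39.77 and 39.22 in ND LP. It was nearly absent in 2 of the 3 PA milk libraries and at similar levels in the 3 ND libraries. Its log2 fold change was -3.89 (SE 1.56, limma adjusted p = 0.979). Mrpl17, the homologue of bacterial L17, had 15.53, 0.97 and 15.73 FPKM in PA LP, against 25.66, 18.99 and 19.12 in ND LP, and its log2 fold change of -1.43 (SE 1.15, limma adjusted p = 0.979) was -0.41 without replicate 2 of PA LP. Mrpl51, a large subunit protein without bacterial counterpart, had 45.3, 24.9 and 43.8 FPKM in PA LP, against 62.0, 54.4 and 91.6 in ND LP, with a log2 fold change of -0.86 (SE 0.74, limma adjusted p = 0.979). Mrps5, the homologue of bacterial S5, overlapped between the diets, with 0.06, 11.97 and 57.49 FPKM in PA LP, against 87.96, 56.37 and 81.82 in ND LP.

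The difference between the diet effects of the layers was tested directly. The diet effect was higher in LP than in IEL for 42 members and lower for 34, with a median difference of 0.04 on the log2 scale (-0.03 over all genes tested). Scaling on genes common to leukocytes gave 0.47 (all genes 0.25), and the sign flipped with limma-voom (-0.09), without the 2 libraries with the fewest genes (-0.10), and without replicate 1 of PA IEL (-0.03), replicate 3 of ND IEL (-0.06) or replicate 1 of ND LP (-0.08). No member passed, with 0 called by limma (0% of all genes) and 0 by limma-voom (0% of all genes), and 2 members (2.34% of all genes) and 4 members (4.70% of all genes) at an unadjusted p under 0.05. The 2 were Mrps31, with a difference of 3.26 (SE 1.26, limma adjusted p = 1), and Mrps5, with -4.24 (SE 1.72, limma adjusted p = 1), which was -2.68 without replicate 1 of PA LP. The 4 with limma-voom were other members, Mrpl2, Mrps2, Mrps22 and Mrps34. Both layers were compared within each diet next.

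Under ND, most members were higher in IEL than in LP, 55 of 76, with a median log2 fold change of 0.32 against -0.09 over all genes tested. This direction held under all 21 alternatives tried, with medians from 0.15 to 0.55, the lowest without replicate 1 of ND LP. Some of them could not move it. Leaving out 1 or 2 PA milk libraries, the replicate block and the fit of only the libraries compared keep the ND fold changes as they are. So do the fit without a filter and the filter at 6 libraries, as all 76 members pass it. The count of lower members, 21, was 9 without replicate 2 of ND IEL and 12 both with scaling on genes common to leukocytes (all-gene median 0.09) and with limma-voom (all-gene median 0.14). The large subunit had a median of 0.30 (35 of 49 higher) and the small subunit one of 0.32 (19 of 26 higher). Single members did not pass: limma called 0 of them (0.032% of all genes) and limma-voom 0 (2.97% of all genes), and 0 (6.63% of all genes) and 5 members (16.3% of all genes) had an unadjusted p under 0.05.

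The ND libraries of the layers did not overlap for 13 members higher in IEL, 17.1% of the members beside 9.95% of all genes. They were Mrpl2, Mrpl15, Mrpl21, Mrpl40, Mrpl49, Mrpl50, Mrps2, Mrps11, Mrps16, Mrps18a, Mrps18c, Mrps31 and Mrps36. Mrpl17 was the 1 member lower in all IEL libraries, 1.32% beside 9.34% of all genes.

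Mrpl40, a protein of the central protuberance, had 80.3, 121 and 68.7 FPKM in ND IEL and 30.0, 38.1 and 32.5 in ND LP. Every IEL library was above every LP library. The log2 fold change was 1.36 (SE 0.70, limma adjusted p = 0.818), between 1.13 and 1.53 when a library was left out. Mrpl2 had 89.4, 76.0 and 102 FPKM in ND IEL and 45.6, 44.4 and 22.8 in ND LP, a log2 fold change of 1.28 (SE 0.69, limma adjusted p = 0.844). Mrps2 was at 57.52, 19.39 and 26.54 FPKM in ND IEL and at 0, 13.37 and 12.91 in ND LP, and its log2 fold change of 2.45 (SE 1.27, limma adjusted p = 0.823) was 1.18 without replicate 1 of ND LP. Mrpl17 had 11.37, 2.45 and 13.57 FPKM in ND IEL and 25.66, 18.99 and 19.12 in ND LP, a log2 fold change of -1.37 (SE 1.15, limma adjusted p = 1) that was -0.72 without replicate 2 of ND IEL.

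Under PA milk, 43 of 76 members were higher in IEL than in LP and 33 lower. The median log2 fold change was 0.21 (-0.03 over all genes tested), and it flipped to -0.03 with upper quartile scaling (all genes -0.14) and to -0.07 without replicate 3 of PA LP, and was 0.00 with scaling on genes common to leukocytes (all genes -0.16) and 0.34 with limma-voom (all genes 0.26). Limma called 0 members (0.144% of all genes) and limma-voom 0 (0% of all genes), with 11 members (10.6% of all genes) and 4 members (10.4% of all genes) at an unadjusted p under 0.05. Of the 11, Mrps5, Mrps10, Mrps17, Mrps22, Mrps27 and Mrps34 were higher in IEL, and Mrpl23, Mrpl55, Mrps6, Mrps18b and Mrps31 were lower. The 4 with limma-voom were Mrpl28, Mrps22, Mrps27 and Mrps34. The libraries did not overlap for 3 members higher in IEL (Mrpl18, Mrps17 and Mrps34), 3.95% beside 4.06% of all genes. Mrpl23, Mrpl33, Mrpl55, Mrps6, Mrps18b and Mrps31 were lower in all IEL libraries, 6 members or 7.89% beside 4.51% of all genes.

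Mrps34, a small subunit protein without bacterial counterpart, was at 106.86, 332.43 and 199.01 FPKM in PA IEL and at 0, 68.45 and 72.87 in PA LP. IEL was higher in every library. The log2 fold change of 3.48 (SE 1.25, limma adjusted p = 0.404) was 1.43 without replicate 1 of PA LP, where the gene was listed at 0. Mrps17, the homologue of bacterial S17, had 61.1, 126 and 53.1 FPKM in PA IEL, against 2.13, 41.4 and 35.7 in PA LP, a log2 fold change of 2.15 (SE 0.98, limma adjusted p = 0.456) that was 0.93 without the same library. Mrpl18 had 157, 170 and 90.3 FPKM in PA LP, below its values in PA IEL, and its log2 fold change of 1.12 (SE 0.58, limma adjusted p = 0.509) was 0.53 without replicate 2 of PA IEL, where it had 669 FPKM.

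Among the members lower in PA IEL, Mrps6, the homologue of bacterial S6, was at 78.49, 0 and 68.44 FPKM in PA IEL and at 134.72, 161.17 and 86.52 in PA LP. Mrps18b was at 78.90, 0 and 56.32 in PA IEL and at 93.04, 175.34 and 87.96 in PA LP. Mrpl55, a large subunit protein, was at 56.14, 0 and 34.22 in PA IEL and at 66.96, 155.91 and 56.90 in PA LP. All 3 were listed at 0 in replicate 2 of PA IEL. Their log2 fold changes of -2.82 (SE 1.28), -2.78 (SE 1.26) and -2.75 (SE 1.23), with limma adjusted p-values of 0.454, 0.454 and 0.451, became -0.74, -0.75 and -0.92 without that library.

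Mrps22 was singled out after its values were seen, because 1 library decided its call. It was at 64.72, 130.88 and 50.89 FPKM in PA IEL and at 2.47, 145.45 and 0 in PA LP. Replicate 2 of PA LP was the highest of these 6 libraries and the other LP libraries were the lowest, so the layers overlapped. The log2 fold change was 3.26 (SE 1.40, limma adjusted p = 0.444). Without replicate 2 of PA LP it was 5.36 (SE 0.96, limma adjusted p = 0.0113), in a fit that called 289 of all genes tested. Without both libraries with the fewest genes it was 4.97 (SE 0.85, limma adjusted p = 0.0115), beside 314 of all genes. Over the alternatives the value ranged from 1.76, without replicate 3 of PA LP, to 6.89.

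**Figure D3:**
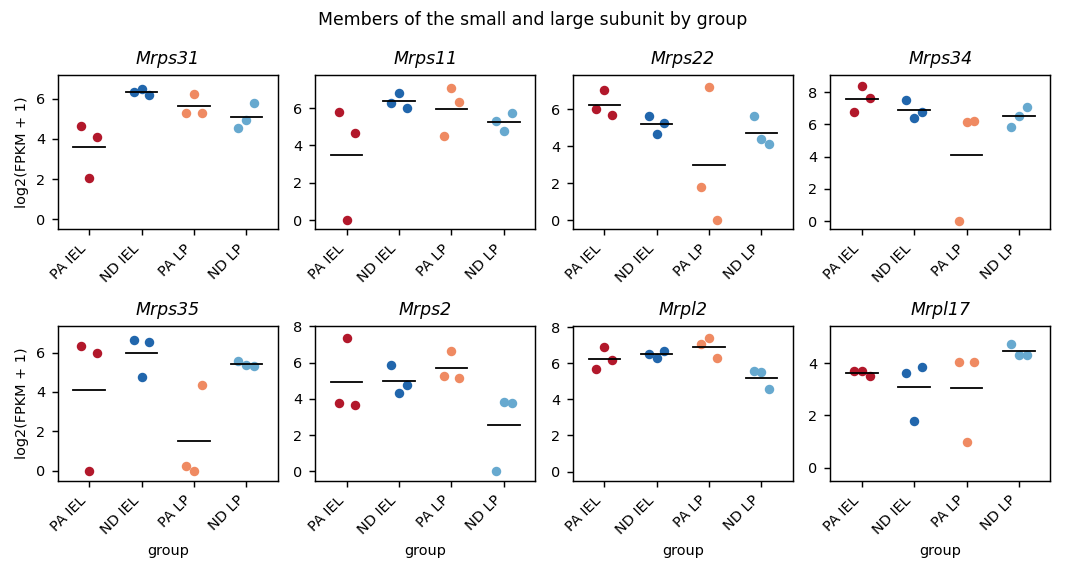
Points are single libraries of 8 members of the small and large subunit as log2(FPKM + 1) on the vertical axis, by group on the horizontal axis (3 libraries each), with a bar at the group mean. Mrps31 is lower in all 3 libraries of PA IEL than in any of ND IEL or PA LP, Mrps35 is near 0 in 2 of the 3 libraries of PA LP, and Mrps22 in PA LP is at 2.47, 145.45 and 0 FPKM before the logarithm.

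The direction of the members between the layers was set beside the gene families they work with. Under ND, respiratory chain and ATP synthase genes were higher in IEL for 73 of 81 tested, with a median log2 fold change of 0.65, and cytosolic ribosomal protein genes were lower for 75 of 82, with a median of -0.33. The members, with 55 of 76 higher and a median of 0.32, lay between them. Over the 21 alternatives the medians were 0.44 to 0.89 for the respiratory chain and -0.45 to -0.09 for cytosolic ribosomal proteins. Neither changed sign, though the alternatives that keep the ND fold changes as they are could not change it. Under PA milk the respiratory chain had 60 of 81 higher and a median of 0.49 (0.20 to 0.90 over the alternatives), and cytosolic ribosomal proteins 68 of 82 lower and a median of -0.40 (-0.65 to -0.18). The difference between the families was not tested. At an adjusted p under 0.05, limma called 0 respiratory chain genes under ND (0.032% of all genes), with 17 at an unadjusted p under 0.05 (6.63% of all genes), while limma-voom called 6 (2.97% of all genes). Limma and limma-voom called 0 of the cytosolic genes under ND, with 6 and 9 at an unadjusted p under 0.05 (6.63% and 16.3% of all genes). Under PA milk, limma and limma-voom called 0 of the respiratory chain genes, with 14 and 21 at an unadjusted p under 0.05, and 0 of the cytosolic genes, with 12 and 5. The shares of all genes were 10.6% and 10.4% at an unadjusted p. Limma called 2 respiratory chain genes without replicate 2 of PA LP (289 of all 12502 genes), 1 without replicate 3 of PA LP (33 of all genes), 5 without the 2 libraries with the fewest genes (314 of all genes), and 1 each with no filter (9 of 23284 genes), with the filter at 6 libraries (19 of 10263) and with the pseudocount of 0.1 (13 of 12502).

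Between the diets, cytosolic ribosomal protein genes were higher in PA milk for 61 of 82 in IEL (median 0.15) and for 67 of 82 in LP (median 0.23). These medians flipped to -0.40 and -0.20 with upper quartile scaling and to -0.15 and -0.08 with limma-voom, and the first also to -0.01 without replicate 2 of PA IEL. Their highest values over the alternatives were 0.29 in IEL and 0.54 in LP. Over the alternatives, 9 to 64 of the 82 were higher in PA milk in IEL and 18 to 79 in LP. Respiratory chain genes were lower for 58 of 81 in IEL (median -0.28), with medians of -0.83 with upper quartile scaling (73 lower), -0.42 with scaling on genes common to leukocytes, -0.56 without replicate 3, -0.11 without replicate 1 and -0.05 without replicate 2 of PA IEL (45 lower), and for 51 of 81 in LP (median -0.14), the latter flipping to 0.17 with scaling on genes common to leukocytes, to 0.06 without replicate 3 of PA LP and to 0.01 without replicate 3 of ND LP. In the other direction, the lowest median of the respiratory chain in LP over the 21 alternatives was -0.56. Its count of lower genes there ranged from 28 to 73. The members had medians of -0.08 and 0.09 in the same comparisons, which flipped as described.

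Epithelial marker genes moved with the layer. Of 21 such genes, 20 were in the table, and their summed FPKM was 9739, 5192 and 58592 in PA IEL, against 27810, 93983 and 32894 in ND IEL. It was 1761, 2719 and 1352 in PA LP, against 11907, 5894 and 10704 in ND LP. Every IEL library exceeded every LP library under PA milk, and likewise under ND. The most abundant of them was Fabp2, a fatty acid binding protein of enterocytes, with up to 35069 FPKM in replicate 2 of ND IEL. Under ND, 18 of the 20 were higher in IEL (median log2 fold change 2.34). Limma called 1, Apoa1 (log2 fold change 7.43, SE 1.10, adjusted p = 0.0306), beside 0.032% of all genes. Limma-voom did not call it but called 3 others, Cdh1, Cldn7 and Lgals4, beside 2.97% of all genes. The limma call of Apoa1 was lost without replicate 1 or 2 of PA IEL, replicate 2 or 3 of ND IEL or any library of ND LP, with a log2 fold change of 6.53 to 8.08 and a count of limma calls in this list of 0 to 3 when a library was left out. Under PA milk, 14 of 20 were higher in IEL (median 2.57). Limma called 3, Alpi, Apoa1 and Apoa4 (0.144% of all genes), and limma-voom 0 (0% of all genes), with 13 and 2 at an unadjusted p under 0.05 (10.6% and 10.4% of all genes). Of the 13, 11 were higher in IEL and 2 lower, Lyz1 and Olfm4. With limma-voom 19 of 20 were higher under ND (median 1.97) and 18 under PA milk (median 4.60). All 3 limma calls were lost without replicate 3 of PA IEL (log2 fold changes of 6.25, 6.69 and 7.72) and without replicate 1 of PA LP (6.91, 6.44 and 8.13), though these were about as large as with all libraries (7.24, 7.55 and 8.68). The call of Alpi was also lost without replicate 2 of PA IEL, any library of ND IEL or replicate 2 of ND LP, and the count was 6 without replicate 2 of PA LP. They were also lower in PA milk for 19 of 20 in each layer, with 0 called by limma and by limma-voom, and 4 in IEL and 7 in LP at an unadjusted p under 0.05 (2 and 0 by limma-voom). Epithelial cells also express mitochondrial ribosomal protein genes, and the part of these cells in the layer differences was not tested.

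Markers of other cells varied from library to library. Of 10 T cell markers, led by Cd3g, 1 was at an FPKM of at least 1 in replicate 2 of PA IEL, of PA LP and of ND IEL, and 3 to 10 in the others. Their summed FPKM was 169.5, 26.2 and 74.8 in PA IEL, 255, 2.1 and 473 in ND IEL, 38.0, 56.0 and 265 in PA LP, and in ND LP 164, 306 and 169. The list holds Cd4, which the paper's methods name in the sort gate. Cd4 alone was at 26.11, 55.77 and 1.89 FPKM in replicate 2 of PA IEL, PA LP and ND IEL, most of each sum. Whether it stands for T cells or for the sorted cells was not tested. The most abundant B and plasma cell marker, Igj, ranged from 1.19 to 17871 FPKM, both in PA IEL, while the B cell marker Pax5 was at 0 in all 12 libraries. The summed FPKM of the 7 B and plasma cell markers in the table was 19433, 957 and 281 in PA IEL, 1818, 593 and 4030 in ND IEL, 395, 148 and 8325 in PA LP, and in ND LP 1909, 1541 and 7285. The 10 myeloid markers, led by Lyz2, summed to 1950, 5833 and 1512 FPKM in PA IEL, 3744, 3898 and 1530 in ND IEL, 1872, 4353 and 1639 in PA LP, and in ND LP 12085, 1640 and 1044. The 10 proliferation markers, led by Pcna, were detected at 9 or 10 in every library, and summed to 254 FPKM at the lowest and 1241 at the highest.

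The ILC3 markers summed to 2441, 327 and 1506 FPKM in PA IEL, 397, 296 and 833 in ND IEL, 299.9, 108 and 518 in PA LP, and in ND LP 986, 7246 and 1149. In LP, 17 of the 18 were lower in PA milk (median log2 fold change -1.96), and in IEL 13 were higher (median 0.79), with 0 called by limma and by limma-voom in either layer, and 7 and 1 by limma and 1 and 1 by limma-voom at an unadjusted p under 0.05. Under ND, 16 of the 18 were lower in IEL than in LP (median -1.98), with 0 called by limma (1 at an unadjusted p under 0.05) and 1 by limma-voom, Id2. Under PA milk 12 were higher in IEL (median 1.47), with 0 called by limma and by limma-voom and 2 by each at an unadjusted p under 0.05. Of the 6 B and plasma cell markers tested, 5 were lower in IEL than in LP under ND (median -3.08), with 0 called by limma (2 at an unadjusted p under 0.05) and 1 by limma-voom, Ms4a1, and all 6 were lower in PA milk in LP (median -4.08), with 0 called by limma and by limma-voom and 2 by each at an unadjusted p under 0.05. Of the 9 T cell markers tested, 7 were lower in PA milk in IEL (median -1.93) and 8 in LP (median -2.07), and 7 under ND and 6 under PA milk were lower in IEL than in LP (medians -1.28 and -1.59). In these 4 comparisons limma and limma-voom called 0 of them, with 2, 1, 1 and 1 by limma and 4, 0, 2 and 1 by limma-voom at an unadjusted p under 0.05. The limma gene in each of the layer comparisons was higher in IEL, against the direction of the median. With limma-voom the medians of the T cell markers were -6.77, -1.85, -0.18 and -4.07, with 5 of 9 lower under ND. The 10 myeloid markers had medians of 0.03, 0.25, 0.48 and 0.16 in the same comparisons, and of -0.16, -0.14, -0.15 and 0.42 with limma-voom, so that 3 of the signs turned, with 0 called by limma (0, 0, 0 and 1 at an unadjusted p under 0.05) and 2 by limma-voom under ND, Itgam and Itgax, and 0 in the other 3 (0, 1 and 1 at an unadjusted p under 0.05). With limma-voom the medians in the same order were 1.73, -4.96, -1.36 and 3.95 for the ILC3 markers and -0.88, -5.34, -1.60 and 0.93 for the B and plasma cell markers. The 30 genes common to leukocytes had medians of -0.03 and -0.24 between the diets in IEL and LP, and of -0.28 and 0.19 between the layers under ND and PA milk. For the diets in IEL and LP and the layers under ND and PA milk, limma called 0%, 0%, 0.032% and 0.144% of all genes. Limma-voom called 0%, 0%, 2.97% and 0%. The shares of all genes at an unadjusted p under 0.05 were 3.58%, 4.70%, 6.63% and 10.6% by limma. By limma-voom they were 5.87%, 5.90%, 16.3% and 10.4%. The part of these markers in the results above was not tested.

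Other genes of mitochondrial translation were taken as 6 lists with 77 genes, of which 74 were matched by symbol and tested. They hold ribosomal proteins under other symbols, assembly and rRNA modification factors, translation factors, aminoacyl-tRNA synthetases, genes for mitochondrial DNA transcription and maintenance, and nuclear regulators. Between the diets, 30 of the 74 were higher in PA milk in IEL (median log2 fold change -0.52) and 29 in LP (median -0.28). Under ND, 41 were higher in IEL than in LP (median 0.14), and under PA milk 43 (median 0.34). In these 4 comparisons limma called 0 of the 74 (0%, 0%, 0.032% and 0.144% of all genes). At an unadjusted p under 0.05 there were 0, 2, 3 and 6 (3.58%, 4.70%, 6.63% and 10.6% of all genes). Limma-voom gave 31, 32, 51 and 46 of the 74 higher with medians of -0.19, -0.31, 0.45 and 0.79. It had 2, 3, 7 and 5 at an unadjusted p under 0.05 (5.87%, 5.90%, 16.3% and 10.4% of all genes). It called 0, 0, 1 and 0 (0%, 0%, 2.97% and 0% of all genes). The 1 gene was Ftsj2, an rRNA methyltransferase of mitochondria, with 10.63, 25.44 and 3.52 FPKM in ND IEL and listed at 0 in all 3 libraries of ND LP.

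The smallest unadjusted p of these lists under PA milk belonged to Tsfm, the exchange factor that recharges the carrier of aminoacyl-tRNA, singled out after its values were seen. It had 138, 154 and 99.5 FPKM in PA IEL, 123, 24.4 and 45.8 in ND IEL, 0.16, 0.19 and 38.8 in PA LP, and in ND LP 60.1, 39.2 and 36.8. All PA IEL libraries were above all PA LP libraries, 2 of which were near 0. The log2 fold change of IEL against LP under PA milk was 5.09 (SE 1.21, limma adjusted p = 0.165), and 6.78 (SE 0.98, limma adjusted p = 0.0129) without replicate 3 of PA LP, which made it a call. Nrf1, a regulator of nuclear genes for mitochondria, was at 50.24, 85.82 and 13.67 FPKM in PA IEL, at 13.79, 0 and 16.01 in ND IEL, at 10.01, 0.09 and 12.59 in PA LP and at 41.25, 14.62 and 12.36 in ND LP. All its PA IEL libraries were above all PA LP libraries, with a log2 fold change of 2.88 (SE 1.38, limma adjusted p = 0.478) that was 1.72 without replicate 2 of PA LP, and its other groups overlapped.

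The members are spread over 17 chromosomes, with 10 on chromosome 11 and 8 on chromosome 17. By the GRCm38 annotation, exons of 32 members overlap another annotated gene, for 27 of them a gene on the opposite strand. The library kit does not mark strand, so reads of such genes cannot be told apart where they overlap, and 5 annotated pseudogenes carry names of members. The 1 pair of members that overlap is Mrpl46 and Mrps11, which share 413 bases on chromosome 7 and point away from each other. Mrpl46 lies at chr7:78775236-78783531 on the minus strand and Mrps11 at chr7:78783119-78792989 on the plus strand. In PA IEL, Mrpl46 was at 28.90, 107.25 and 93.62 FPKM where Mrps11 was at 54.38, 0 and 24.57. In ND IEL, Mrpl46 was at 148.73, 0.09 and 69.97 where Mrps11 was at 76.01, 111.87 and 62.73. The 2 genes were thus near 0 in different libraries.

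A further gene pointing away from the member, with its start within 1000 bases, was found for 18 members. Mrpl49 shares such a site with Fau, which encodes a protein of the cytosolic ribosome, with 59 bases between the starts. Fau had 525 to 1364 FPKM in all 12 libraries, while Mrpl49 was at 0.38 in replicate 2 of PA IEL and at 0 in replicate 2 of PA LP. Mrps12 starts 172 bases from Sars2, the mitochondrial seryl-tRNA synthetase, which was at 0 in replicate 2 of PA IEL where Mrps12 had 476 FPKM. Mrpl36 overlaps Ndufs6, a respiratory chain subunit with 131 to 523 FPKM, at their starts. These 3 pairs are examples chosen after values were seen, and others differ: Mrps18b and its neighbour Ppp1r10, and Mrps18c and Helq, were all at 0 in replicate 2 of PA IEL.

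Promoters, taken as 250 bases before to 50 bases after a gene's start in RefSeq on GRCm38.p6, were available for 67 members, with 73 promoters among the 32851 of the table. They were searched on both strands for short forms of motifs of factors known to act on nuclear genes for mitochondria. The motifs and the promoters shown were chosen after the data and earlier searches with other and longer forms had been seen. The NRF1 core CGCATGCG, which reads the same on both strands, was found for 7 members, 10.4%, against 2.8% of 17491 protein-coding genes and 2.1% of all 27025 genes. The ETS motif CCGGAAGT was found for 12 members, 17.9%, against 5.7% and 4.3%. The YY1 motif ATGGCGGC was found for 12, 17.9%, against 3.5% and 2.6%. At least 1 of these 3 was found for 27 members, 40.3%, against 11.1% and 8.4%, and the TATA box letters TATAAA for 5 members, 7.5%, against 14.8% and 15.7%. No match of 1 of the first 3 motifs overlapped a match of another in these promoters, and a match describes the sequence only.

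The motifs differed in place. All 8 matches of the NRF1 core lay before the start, between positions -224 and -10, and 11 of the 12 ETS matches did, with a median position of -27. Of the 12 YY1 matches, 11 lay after the start, all of them reading in the direction of the gene, with a median position of 17. ATGGCGGC begins with the letters of a start codon, and whether these matches are start codons of the proteins was not tested. The exception was Mrps11, with the reverse complement at position -110. Median GC content was 58.3% in the promoters of members and 56.3% in those of all protein-coding genes.

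Of the first 3 motifs, 4 members hold 2, Mrpl9 and Mrpl22 the NRF1 core with YY1 and Mrps27 and Mrpl27 ETS with YY1. Mrpl9 and Mrps27 are shown as 1 example of each pair, Mrps22 because of its call without 1 library, and Mrps11 because its window lies within Mrpl46. Capitals mark the matches, and each is written 5′ to 3′ on the strand of the gene. The windows are chr3:94443086-94443385 on the plus strand for Mrpl9, chr13:99344536-99344835 on the plus strand for Mrps27, chr9:98601630-98601929 on the minus strand for Mrps22 and chr7:78782881-78783180 on the plus strand for Mrps11.
Mrpl9: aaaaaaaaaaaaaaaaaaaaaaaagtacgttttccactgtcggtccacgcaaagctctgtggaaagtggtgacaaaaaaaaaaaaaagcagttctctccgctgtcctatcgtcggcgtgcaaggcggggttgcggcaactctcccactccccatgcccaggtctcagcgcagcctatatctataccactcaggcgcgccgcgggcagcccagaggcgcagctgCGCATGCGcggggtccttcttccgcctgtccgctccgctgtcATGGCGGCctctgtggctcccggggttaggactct
Mrps27: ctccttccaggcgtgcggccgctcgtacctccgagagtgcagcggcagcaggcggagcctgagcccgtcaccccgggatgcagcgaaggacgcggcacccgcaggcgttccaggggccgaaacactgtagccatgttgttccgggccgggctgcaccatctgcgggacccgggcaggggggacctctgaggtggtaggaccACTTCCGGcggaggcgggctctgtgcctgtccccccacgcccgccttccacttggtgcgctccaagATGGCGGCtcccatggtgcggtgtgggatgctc
Mrps22: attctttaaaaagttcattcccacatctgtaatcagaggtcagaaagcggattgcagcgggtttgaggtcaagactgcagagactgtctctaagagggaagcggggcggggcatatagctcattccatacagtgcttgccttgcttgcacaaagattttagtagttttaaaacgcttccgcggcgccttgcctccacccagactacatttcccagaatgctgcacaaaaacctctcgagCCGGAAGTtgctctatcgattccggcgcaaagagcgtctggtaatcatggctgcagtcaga
Mrps11: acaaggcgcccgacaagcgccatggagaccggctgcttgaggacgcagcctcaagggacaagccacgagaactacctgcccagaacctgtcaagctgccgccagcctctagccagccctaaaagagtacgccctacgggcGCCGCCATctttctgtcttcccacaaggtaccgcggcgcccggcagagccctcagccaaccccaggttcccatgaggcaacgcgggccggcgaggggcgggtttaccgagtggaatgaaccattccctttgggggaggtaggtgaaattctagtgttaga
Mrpl9 had a mean of 42.9 FPKM and was at 1 FPKM or more in all 12 libraries. Mrps27, which binds RNA in the small subunit, was at 39.90, 220.11 and 45.04 FPKM in PA IEL, at 27.83, 13.26 and 43.33 in ND IEL, at 0, 65.65 and 8.70 in PA LP and at 10.07, 8.99 and 31.40 in ND LP. The diets overlapped in both layers and the layers overlapped under both diets.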

How the data were processed

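RNA of sorted ILC3s was measured in 12 libraries with a low-input kit that copies and amplifies full-length cDNA and does not mark strand. The authors mapped reads to mm10 with TopHat2 2.1.1, Bowtie2 and SAMtools (versions per the submitters' processing notes) and deposited FPKM values made with Cufflinks 2.2.1. They also deposited a table of scaled counts, which has the unit of a signal: within a gene its ratio to FPKM was constant within 3% for 89.1% of 4217 genes. Raw reads were recovered to give depth, reads per member and the floor of 3 reads, from low values, 90.6% to 98.6% of which lay within 0.05 of a whole multiple of 1 read.

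Groups came from the sample labels. Genes at 1 FPKM or more in 3 or more libraries were fitted by limma 3.58.1 (R 4.3.3, mean-variance trend) as log2(FPKM + 1) with 4 group means, with Benjamini-Hochberg adjustment over the 12502 genes and a threshold of 0.05. Tables and plots were made with Python 3.11.15, numpy 2.4.6, pandas 2.3.3, scipy 1.17.1 and matplotlib 3.10.9.

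Members with values in the text are those with the 5 highest and 5 lowest means, those at 1 FPKM or more in every library, up to 3 per direction and comparison with the largest fold change among groups that do not overlap, and those named for their role. Mrps5, Mrps14 and Mrps27, the call of Mrps22, the neighbouring genes and both measures of length were added after values were seen. So were the genes of other lists named for a call, and Nrf1 and Gabpb1, which were not called. Members and lists were chosen with earlier results of these data known. The compared families leave out 11 cytosolic symbols that are not ribosomal proteins (such as the Rps6k kinases), 4 Ndufaf assembly factors and 3 other respiratory symbols that are not subunits.

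Alternatives were upper quartile scaling, scaling on 30 genes common to leukocytes, no filter, a minimum of 1 FPKM in 6 libraries, a pseudocount of 0.1, only the libraries compared, a block for the replicate number, limma-voom on the scaled counts with weights for sample quality, and leaving out the 2 libraries with the fewest genes or each library.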

Additional observations from a re-analysis of the deposited data

Results flagged for a closer look

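Mrps31, a small subunit protein of the mitochondrial ribosome, was set apart because the layers differed in opposite directions under the 2 diets. Under ND it was higher in all IEL libraries (80.8, 90.1 and 71.3 FPKM) than in all LP libraries (22.7, 29.3 and 54.4 FPKM). Under PA milk it was lower in all IEL libraries (24.1, 3.18 and 16.3 FPKM) than in all LP libraries (38.8, 75.1 and 38.3 FPKM). The log2 fold changes of IEL against LP were 1.25 (SE 0.89, limma adjusted p = 0.985) under ND and -2.01 (SE 0.89, limma adjusted p = 0.451) under PA milk. The test of the difference itself gave 3.26 (SE 1.26, limma adjusted p = 1), which did not pass, and 2.11 to 3.78 over 20 alternatives. Without replicate 2 of PA IEL, its lowest library, the difference was 2.49. With limma-voom Mrps31 was not among the members at an unadjusted p under 0.05 for this difference.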

How the results depend on the processing

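Nearly all members named by comparison were chosen because their groups do not overlap, and none was called, so leaving out a library could not turn their sign and a kept sign says little. Their sizes moved: Mrps24 between the diets in IEL ranged from -3.88 to -0.59 over the alternatives, and Mrps34 between the layers under PA milk from 1.43 to 5.96. Of the named members, only Mrps22 between the layers under PA milk became a call, in 2 alternatives, without replicate 2 of PA LP (5.36) and without the 2 libraries with the fewest genes (4.97), so that 1 member was called in each of these fits in place of 0.

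Upper quartile scaling moved the median log2 fold change of the members between the diets to -0.63 in IEL and -0.34 in LP, with 56 members lower in IEL and 53 in LP. Limma-voom gave -0.38 in both layers, with 57 members lower in IEL and 55 in LP. With scaling on genes common to leukocytes, 22 members were lower in LP and the median difference between the diet effects was 0.47. Under ND, 12 members were lower in IEL both with that scaling and with limma-voom. The cause was not tested.

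Leaving out each library in turn gave, for the diets in IEL, medians of -0.11 to 0.17 and 30 to 43 members lower, and for the diets in LP -0.10 to 0.30 and 24 to 42. The difference between the diet effects had medians of -0.08 to 0.29 and 28 to 40 members lower. IEL against LP had medians of 0.15 to 0.44 and 9 to 28 members lower under ND, and -0.07 to 0.39 and 31 to 39 under PA milk. The count of members called was 0 to 0 in all but the last comparison, where it was 0 to 1. Where this left 2 libraries in a group, the spread was taken from all groups.

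With the replicate number as a block (replicate block), 0 members were called in each of the 5 comparisons, with 2, 4, 2, 0 and 5 members at an unadjusted p under 0.05 (480, 648, 315, 911 and 1273 of all 12502 genes), and the medians were the same (-0.08, 0.09, 0.04, 0.32 and 0.21). Deviations from the group means had Pearson correlations across genes of -0.031 to 0.06 in 6 pairs of the same diet and number. They were -0.123 to 0.068 in 6 pairs of the same layer and number, and in both sets 0 were over 0.1. Such correlations cannot show whether libraries of the same diet and number came from the same mice. Depth limits values at or under 3 reads, which have no order.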
